A study of Mus musculus with 6 samples.

Results

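The piRNA pathway and germline genome-defence genes described here are 32 mouse genes of 37991 genes in the table of read counts. They were chosen by name, as known parts of the pathway or as other germline genes, with earlier results of these data known. All 32 were matched to an Ensembl gene. They comprise 3 Piwi proteins, 9 Tudor-domain proteins, 11 factors of piRNA processing and their cofactors, 3 RNA-binding regulators of germ cells, 1 transcription factor and 5 other germline genes. Their transcripts were measured by RNA-seq in primordial germ cell-like cells (PGCLCs) derived in vitro from embryonic stem cells through an epiblast-like intermediate, on day 4 of induction.

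Both groups came from C57BL/6 stem cells with floxed Ezh2 alleles and the tamoxifen-inducible recombinase CreERT2, grown as aggregates with BMP2, SCF, LIF and EGF. The 3 Ctrl libraries (genotype Ezh2f/f, CreERT2) received ethanol, and the 3 Ezh2 KO libraries (genotype given as Ezh2-/-, CreERT2) received 4-hydroxytamoxifen in ethanol to delete Ezh2, the main methyltransferase of the repressive mark H3K27me3. The promoter that drives CreERT2, the sorting gate and the number of stem cell lines are not stated. Since no label says that the replicates were separate inductions, a p-value here weighs a difference against the spread among these libraries, which may be technical.

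PIWI-interacting RNAs (piRNAs) are short RNAs that guide Piwi proteins to the transcripts of transposable elements, which are then cleaved or silenced at their source by DNA methylation. Tudor-domain proteins bind methylated arginines of Piwi proteins and assemble them in germ granules. Nucleases, helicases and a methyltransferase, some of them at mitochondria, make and finish the piRNAs. In the mouse the pathway is best known from the fetal and adult male germ line, after the stage that PGCLCs model, and many of its genes have CpG-rich promoters that are methylated in somatic cells and lose that methylation in germ cells.

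Total counts ran from 27072150 to 49382146 per library, and the 32 genes together received 19211 to 48231 counts. Ezh2 was lower in each Ezh2 KO library (40.8, 67.1 and 70.0 CPM) than in any Ctrl library (91.8, 78.1 and 95.3 CPM). Its log2 fold change of -0.58 ± 0.23 (SE) failed edgeR's quasi-likelihood test after adjustment (adjusted p = 0.976). These counts are per gene and cannot show whether the floxed part of Ezh2 was deleted. The early germ cell markers Prdm1, Prdm14, Tfap2c, Dppa3, Nanos3, Dnd1, Kit and Nanog were all detected, with a summed level of 1073 to 1463 CPM per library. The late spermatogenic markers Pgk2, Acrv1, Prm1 and Tnp1 and the meiotic nuclease gene Spo11 stayed at or under 0.193 CPM in every library. They belong to a list of 11 spermatogonia and spermatocyte markers, of which 7 averaged under 1 CPM. The whole list summed to 36.9 to 58.4 CPM per library, so its other genes were in part expressed. CPM are counts scaled to a common library size with TMM factors.

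At this early stage the pathway was present in part, with levels that differed greatly from gene to gene. Divided by exon length, 9 of the 32 genes had a mean level of at least 10 CPM per kb, 10 lay between 1 and 10, 8 between 0.1 and 1, and 5 under 0.1 CPM per kb. The highest per length were Tex19.1 (54.2 CPM per kb), Mov10 (41.0), Rnf17 (26.6), Rpl10l (24.2), Fkbp6 (23.3), Dazl (12.2), Stk31 (11.9), Tdrd12 (10.5) and Pnldc1 (10.3). At the other end were Piwil4 (0.0878 CPM per kb), Tdrd9 (0.0802), Henmt1 (0.0380), Nanos2 (0.00818) and Tdrd6 (0.00399). The median of the 32 genes was 2.28 CPM per kb, and that of all tested genes was 3.597 CPM per kb, a value that 13 of the 32 exceeded. Enough counts for a test were found for 29 genes. Tdrd6, Henmt1 and Nanos2 were below that filter.

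**Figure D1:**
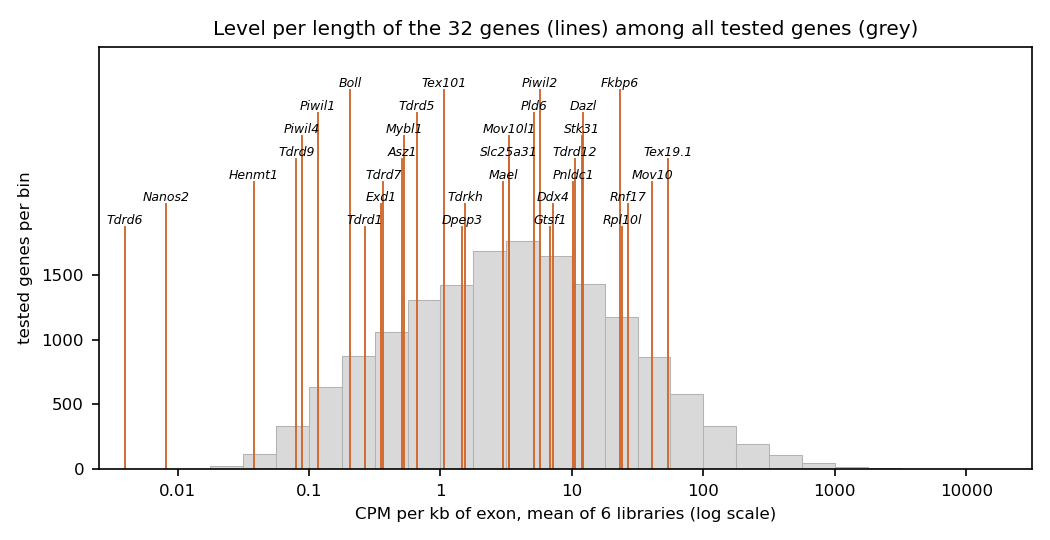
Mean level of each of the 32 genes over the 6 libraries in CPM per kb of exon (log axis, orange lines with names) over the distribution of all tested genes (grey bars, genes per bin). Tex19.1 at 54.2 CPM per kb and Mov10 at 41.0 CPM per kb lie in the upper part of the distribution, and Nanos2 and Tdrd6 lie below nearly all tested genes.

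The promoters of these genes held about as many CpG dinucleotides as those of tested genes, and more often the letters CACGTG. This palindrome, an E-box, is bound by dimers of MAX with partners such as MGA, which belongs to a variant polycomb complex that represses germline genes. Windows of 250 bases before the start were available from RefSeq (build GRCm38.p6) for 27 of the 32 genes, with 38 windows in all since some genes have several starts. CACGTG occurred in a window of 11 of the 27 genes (40.7%), in 9.85% of the 10782 tested genes with a window and in 6.86% of all 27025 genes. Among genes with at least 15 CpG in a window the shares were 55.6% (10 of 18 genes) and 11.8% of tested genes. CpG and motif were each scored over all windows of a gene, and in Boll and Pld6 they lie in different windows. The core of the E2F motif, TCCCGC or its complement GCGGGA, was found in 5 of the 27 genes (18.5%) and in 33.8% of tested genes, and the 2 motifs do not overlap each other. Among genes with at least 15 CpG in a window the shares of the E2F core were 22.2% and 45.6% of tested genes. With the highest CpG count over a gene's windows taken for each gene, the median was 18 in these genes, 17 in tested genes and 6 in all genes. The list of other germline genes held by promoter methylation had CACGTG in 6 of 16 genes (37.5%), and that of other piRNA and genome-defence genes in 1 of 23 (4.35%). The E2F core was found in 8 of those 16 genes (50%) and in 8 of those 23 (34.8%). These shares are descriptions of sequence, and no binding was measured.

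The windows of 5 genes are shown because they hold the motifs in genes with well-detected transcripts. Tex19.1 and Fkbp6 are among the highest per length, and Stk31, Ddx4 and Mael were picked after their motif matches had been seen. Letters run 5′ to 3′ on the strand of the gene, and capitals mark the E-box CACGTG and the E2F core in either orientation. The positions are chr13:112652311-112652560 on the minus strand for Ddx4, chr1:166238745-166238994 on the minus strand for Mael, chr5:135350045-135350294 on the minus strand for Fkbp6, chr6:49395289-49395538 on the plus strand for Stk31 and chr11:121145893-121146142 on the plus strand for Tex19.1.
Ddx4: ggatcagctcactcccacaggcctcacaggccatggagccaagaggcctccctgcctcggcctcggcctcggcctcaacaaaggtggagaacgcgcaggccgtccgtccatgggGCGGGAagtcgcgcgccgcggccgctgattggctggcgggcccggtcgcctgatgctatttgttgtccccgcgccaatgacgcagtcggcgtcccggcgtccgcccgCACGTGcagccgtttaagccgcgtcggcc
Mael: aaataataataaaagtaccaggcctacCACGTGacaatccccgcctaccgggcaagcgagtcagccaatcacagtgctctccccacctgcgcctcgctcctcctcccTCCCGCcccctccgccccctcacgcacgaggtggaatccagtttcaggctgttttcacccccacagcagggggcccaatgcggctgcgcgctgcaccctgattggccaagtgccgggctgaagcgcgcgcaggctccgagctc
Fkbp6: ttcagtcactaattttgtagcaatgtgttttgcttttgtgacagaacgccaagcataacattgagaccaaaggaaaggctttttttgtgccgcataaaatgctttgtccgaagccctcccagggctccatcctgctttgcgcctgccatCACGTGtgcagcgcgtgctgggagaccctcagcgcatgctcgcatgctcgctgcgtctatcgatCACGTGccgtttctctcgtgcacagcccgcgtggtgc
Stk31: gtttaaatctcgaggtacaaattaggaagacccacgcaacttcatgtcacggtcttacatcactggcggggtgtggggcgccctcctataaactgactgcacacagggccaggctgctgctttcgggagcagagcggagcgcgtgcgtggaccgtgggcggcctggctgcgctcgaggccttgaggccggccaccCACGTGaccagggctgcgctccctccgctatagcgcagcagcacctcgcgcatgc
Tex19.1: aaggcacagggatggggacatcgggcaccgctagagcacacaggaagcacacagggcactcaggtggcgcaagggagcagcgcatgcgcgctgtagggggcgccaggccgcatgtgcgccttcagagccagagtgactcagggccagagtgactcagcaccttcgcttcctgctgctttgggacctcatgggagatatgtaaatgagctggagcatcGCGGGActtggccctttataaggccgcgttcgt
In Ddx4 the E-box begins 29 bases before the start and GCGGGA 136 bases before it. In Mael the E-box begins 223 bases and TCCCGC 143 bases before the start. Fkbp6 has E-boxes that begin 101 and 37 bases before its more upstream start, Stk31 has one that begins 55 bases before its more upstream start, and Tex19.1 has GCGGGA alone, beginning 33 bases before the start.

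Genes with and without the E-box overlapped widely in level. The 11 genes with it ranged from Fkbp6 (23.3 CPM per kb), Stk31 (11.9) and Ddx4 (7.21) through Pld6 (5.16), Mov10l1 (3.35), Slc25a31 (3.34) and Mael (3.00) to Tdrd1 (0.267), Boll (0.205), Piwil1 (0.117) and Tdrd9 (0.0802). Genes without the E-box ran from Tex19.1 (54.2 CPM per kb) to Nanos2 (0.00818). A high number of CpG did not always go with a high level. Henmt1 had 30 CpG at 0.0380 CPM per kb, Mov10 had 11 at 41.0 and Rpl10l had 8 at 24.2 CPM per kb. No rank measure was taken over these genes.

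**Figure D2:**
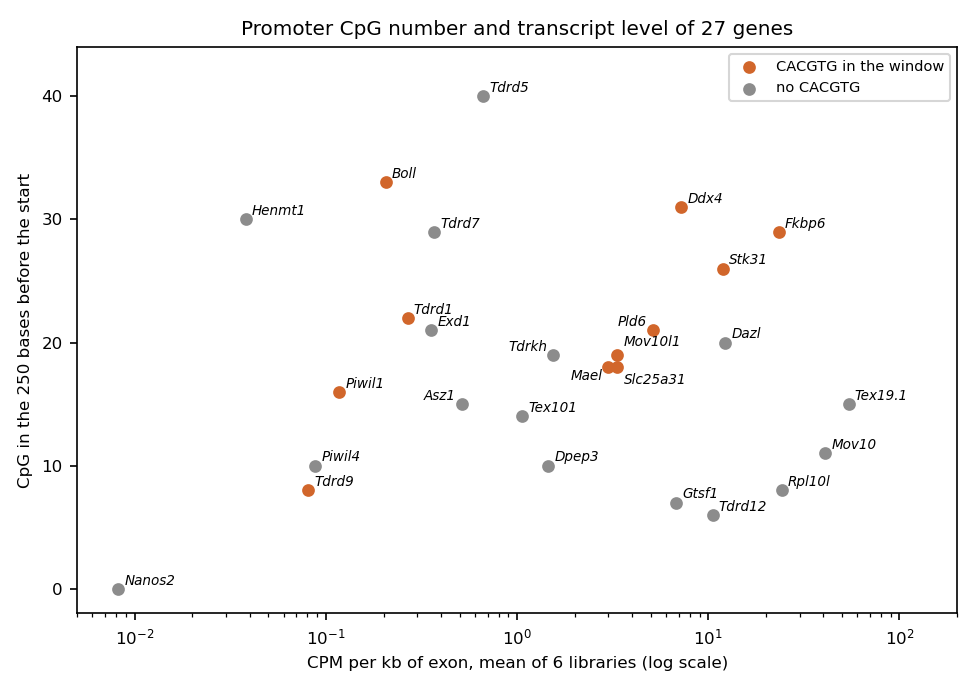
Number of CpG in the 250 bases before the start (the highest over a gene's windows) against mean level in CPM per kb of exon (log axis) for the 27 genes with a window, orange where a window holds CACGTG. The 11 orange genes spread from Tdrd9 at 0.0802 CPM per kb to Fkbp6 at 23.3 CPM per kb.

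Between the groups, 0 of the 29 tested genes passed edgeR's quasi-likelihood test after adjustment, as did 0% of all 16420 tested genes. Their adjusted p lay between 0.976 and 0.996. Before adjustment 1 of the 29, Piwil2, had p under 0.05, and 2.8% of all tested genes did (1.55% higher and 1.25% lower in Ezh2 KO). DESeq2 also called 0 of the 32, with 0.0201% of all the genes it tested called. Of the 29 log2 fold changes 16 were above 0 and 13 below, with a median of 0.05, and the median over all tested genes was 0.01. For 0 of the 29 genes did the Ezh2 KO libraries all lie above or all below the Ctrl libraries, a separation found in 8.09% of all tested genes (4.07% higher and 4.03% lower in Ezh2 KO). Set against the Ctrl library of the same number, Ezh2 KO was higher in all 3 pairs for Tex19.1, Tdrkh, Fkbp6 and Asz1 (4 genes, with 17.9% of all tested genes) and lower in all 3 pairs for Pnldc1, Tdrd12 and Dpep3 (3 genes, with 14.8% of all tested genes).

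The precision of these comparisons differed between genes. For 16 of the 29 genes the 95% interval of the log2 fold change lay inside a 2-fold change either way, and for 53.7% of all tested genes it did. The median half-width of the interval was 0.74 on the log2 scale for the 29 genes and 0.71 for all tested genes. In bulk samples such as these, fewer cells of a type and less RNA per cell cannot be told apart.

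**Figure D3:**
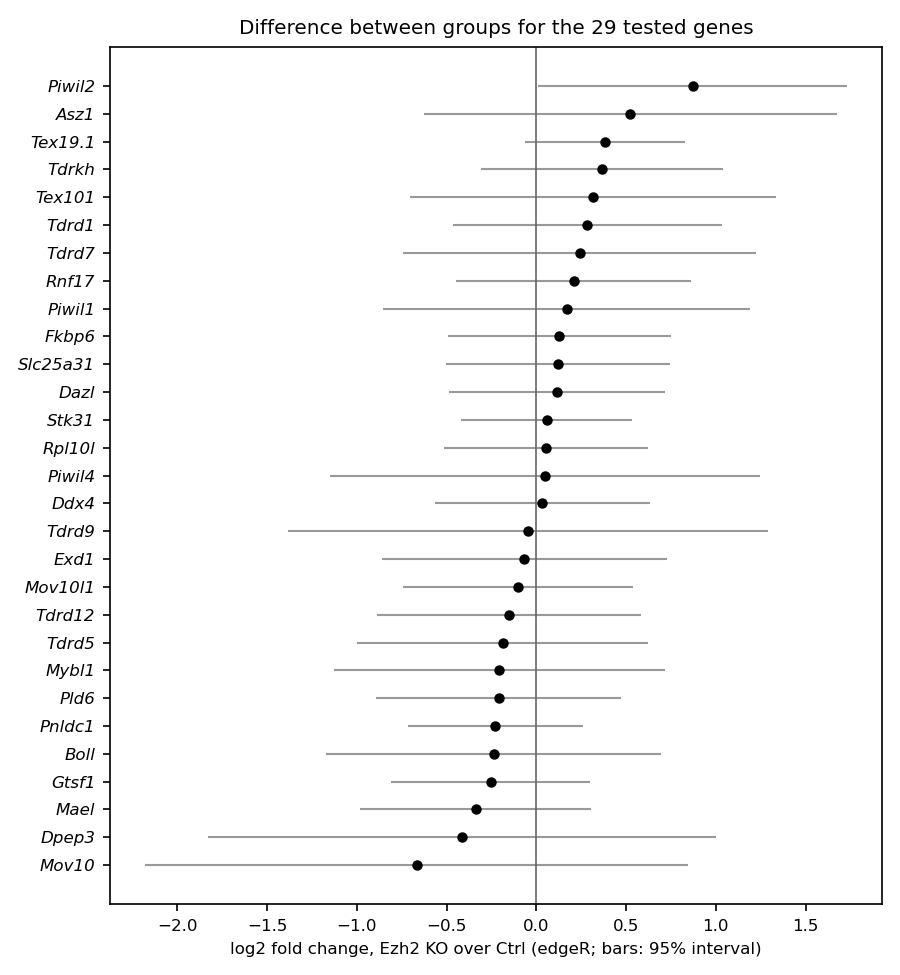
Log2 fold change of Ezh2 KO over Ctrl with its 95% interval (edgeR) for the 29 tested genes, sorted by size. The interval of each gene but Piwil2 includes 0, and Mov10, Dpep3 and Tdrd9 have the widest intervals.

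Among the Piwi proteins, Piwil2 was the only well-detected one. Piwil2 (ENSMUSG00000033644) encodes a Piwi protein that binds piRNAs in male germ cells, fetal and early postnatal ones among them. Its libraries held 17.4, 27.04 and 19.5 CPM under Ctrl and 62.9, 25.1 and 28.7 CPM with Ezh2 KO. The high value of Ezh2 KO replicate 1 stood apart, and the other Ezh2 KO libraries lay near the Ctrl range, so that the groups overlapped. The log2 fold change was 0.87 ± 0.37 (SE; 95% interval 0.01 to 1.73; edgeR's quasi-likelihood test, unadjusted p = 0.0479, adjusted p = 0.976). Without Ezh2 KO replicate 1 it was 0.34 (unadjusted p = 0.236 in edgeR). With the replicate number as a block it was 0.77 in edgeR's quasi-likelihood test (unadjusted p = 0.0868, adjusted p = 0.613). That fit had 0 of the 29 genes under an unadjusted 0.05, and 9.1% of all tested genes (5.98% higher and 3.12% lower in Ezh2 KO). DESeq2 with the same block gave Piwil2 0.75 (unadjusted p = 0.0330, adjusted p = 0.635) and had 2 of the 32 genes under an unadjusted 0.05, Piwil2 and Mov10, and 4.71% of all genes it tested.

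The other Piwi genes were near the limit of detection. Piwil1, which encodes the Piwi protein of meiotic and later male germ cells, ranged from 0.347 to 0.802 CPM over the 6 libraries, on 9 to 30 counts each. Piwil4, whose nuclear product directs DNA methylation of transposons in fetal male germ cells, ranged from 0.212 to 0.742 CPM, on 6 to 36 counts. Their log2 fold changes were 0.17 (95% interval -0.85 to 1.19) and 0.05 (-1.15 to 1.25).

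The Tudor-domain genes held both some of the most and some of the least abundant transcripts. Rnf17, which encodes a germ granule protein with a RING finger and Tudor domains, stood at 95.5, 173 and 193 CPM under Ctrl and 147, 229 and 156 CPM with Ezh2 KO. Stk31, with a Tudor and a kinase-like domain, stood at 33.4, 40.7 and 39.1 CPM under Ctrl and 38.9, 47.1 and 31.9 CPM with Ezh2 KO. For both genes the groups overlapped, with log2 fold changes of 0.21 (95% interval -0.45 to 0.86) and 0.06 (-0.42 to 0.53). Tdrd12, a helicase-like partner needed for secondary piRNAs, stood at 58.0, 53.2 and 33.2 CPM under Ctrl and 51.4, 52.2 and 26.2 CPM with Ezh2 KO. Both low values of Tdrd12 came from the libraries numbered 3, and its log2 fold change was -0.15 (-0.89 to 0.58).

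Tdrkh, a mitochondrial Tudor protein that supports trimming of piRNA ends, stood at 9.88, 8.27 and 6.76 CPM under Ctrl and 12.8, 12.0 and 7.34 CPM with Ezh2 KO. Of its 50-base windows, 34.7% also occur in transcripts of the overlapping gene Oaz3, so its counts may hold reads of that neighbour. Tdrd5, needed for germ granule assembly and transposon silencing, stood at 4.33, 4.90 and 5.52 CPM under Ctrl and 3.10, 3.28 and 6.52 CPM with Ezh2 KO. The log2 fold changes were 0.37 (95% interval -0.31 to 1.04) for Tdrkh and -0.19 (-0.997 to 0.62) for Tdrd5, with overlapping groups in both.

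Tdrd1, the Tudor partner of Piwil2 in germ granules, was low, at 1.11, 1.45 and 1.38 CPM under Ctrl and 1.87, 1.27 and 1.63 CPM with Ezh2 KO. Tdrd7, a granule protein that is also made in the lens, was at 0.969, 1.14 and 1.91 CPM under Ctrl and 0.936, 1.89 and 1.90 CPM with Ezh2 KO. Of Tdrd1, 2 Ezh2 KO libraries lay above the Ctrl range and 1 within it, while Tdrd7 overlapped over nearly its whole range, with log2 fold changes of 0.28 (95% interval -0.47 to 1.03) and 0.24 (-0.74 to 1.22). Tdrd9, a helicase with a Tudor domain, ranged from 0.198 to 0.749 CPM over all libraries. Tdrd6, a large granule protein of spermatocytes and spermatids, had 0 counts in 4 libraries, 1 in Ctrl replicate 3 and 5 in Ezh2 KO replicate 1. A count of 0 allows up to 3 counts, which is 0.0619 to 0.116 CPM depending on the library, for counting error only.

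**Figure D4:**
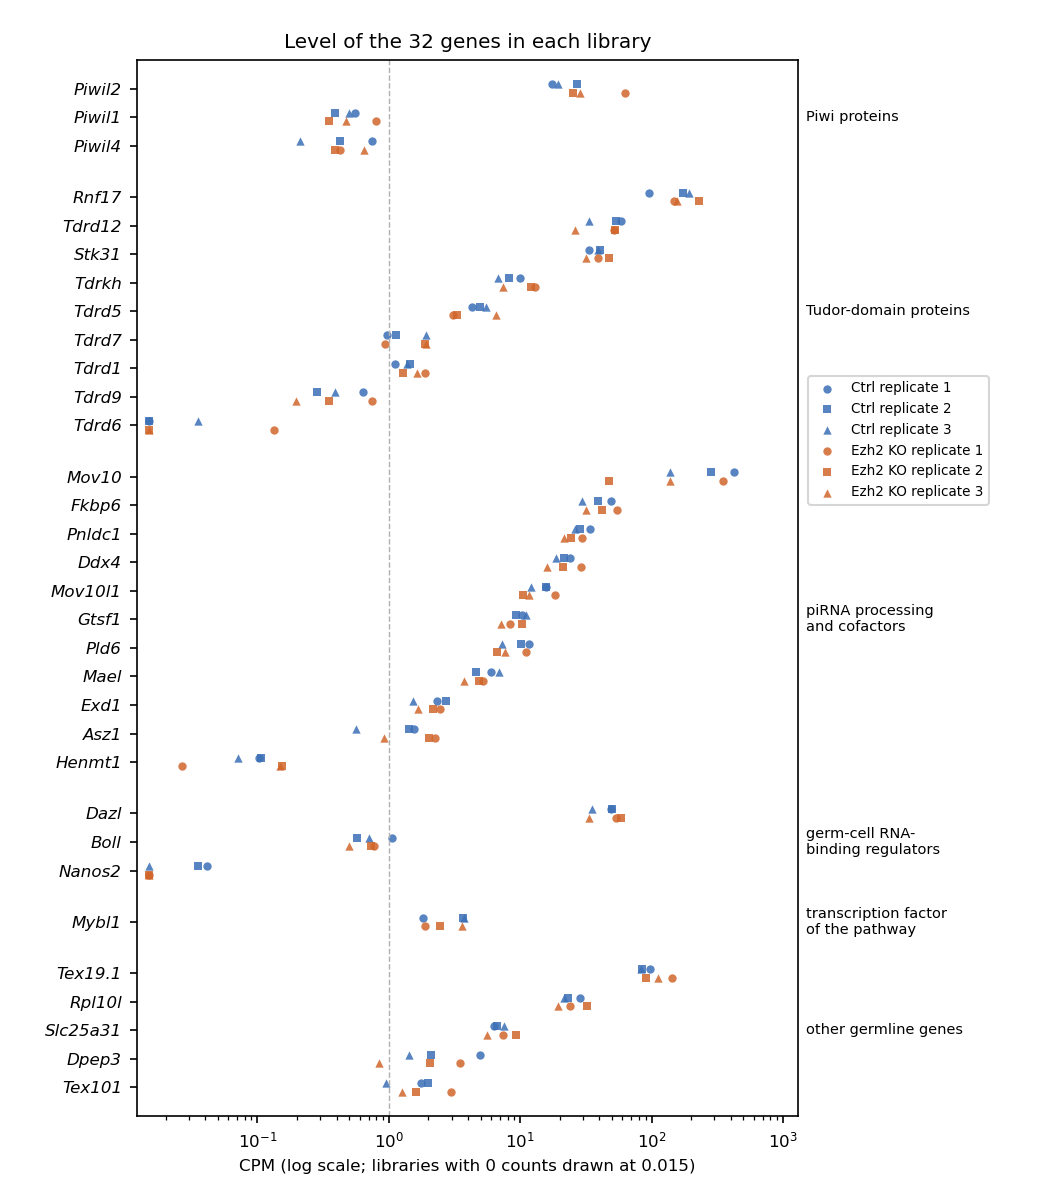
Level of each of the 32 genes in each library in CPM (log axis), Ctrl in blue and Ezh2 KO in orange, grouped by role; libraries with 0 counts are drawn at the far left. Piwil2, Rnf17, Mov10, Dazl and Tex19.1 lead their groups, and Tdrd6, Henmt1 and Nanos2 are at or near 0.

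Genes for the making of piRNAs were mostly detected at moderate levels and overlapped between the groups. Of the 11, 10 were tested, with 3 log2 fold changes above 0 and 7 below and a median of -0.16. Fkbp6, a co-chaperone of the pathway, stood at 48.8, 39.1 and 29.4 CPM under Ctrl and 54.6, 42.0 and 31.5 CPM with Ezh2 KO. Ddx4, the germ cell helicase also called Vasa, stood at 24.1, 21.6 and 18.7 CPM under Ctrl and 28.9, 21.2 and 15.9 CPM with Ezh2 KO. In both genes the libraries numbered 1 were highest and those numbered 3 lowest in each group, and the log2 fold changes were 0.13 (95% interval -0.49 to 0.75) and 0.03 (-0.57 to 0.63).

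Pnldc1, the nuclease that trims piRNA 3′ ends, stood at 33.9, 28.3 and 26.3 CPM under Ctrl and 29.6, 24.4 and 21.5 CPM with Ezh2 KO. Its log2 fold change of -0.23 had one of the narrower intervals (-0.72 to 0.26). Mov10l1, a helicase that acts on piRNA precursors, stood at 15.6, 15.8 and 12.1 CPM under Ctrl and 18.4, 10.5 and 11.7 CPM with Ezh2 KO. Pld6, the mitochondrial nuclease that cuts those precursors, stood at 11.7, 10.2 and 7.29 CPM under Ctrl and 10.96, 6.60 and 7.63 CPM with Ezh2 KO. Groups of these genes overlapped, and the log2 fold changes of Mov10l1 and Pld6 were -0.10 (-0.74 to 0.54) and -0.21 (-0.89 to 0.47).

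Gtsf1, a zinc-finger cofactor of Piwi cleavage, was at 10.4, 9.26 and 11.1 CPM under Ctrl and 8.29, 10.3 and 7.19 CPM with Ezh2 KO. Mael, a granule protein required for transposon silencing, was at 5.96, 4.61 and 6.86 CPM under Ctrl and 5.19, 4.87 and 3.75 CPM with Ezh2 KO. Below the Ctrl range lay 2 Ezh2 KO libraries of Gtsf1 and 1 of Mael, the others within it, with log2 fold changes of -0.25 (95% interval -0.81 to 0.30) and -0.34 (-0.98 to 0.31). Exd1, a partner of Tdrd12, was at 2.31, 2.73 and 1.52 CPM under Ctrl and 2.46, 2.16 and 1.66 CPM with Ezh2 KO. Asz1, a mitochondrial scaffold of the pathway, was at 1.57, 1.42 and 0.566 CPM under Ctrl and 2.25, 2.01 and 0.914 CPM with Ezh2 KO. The interval of Asz1 was wide (log2 fold change 0.52, -0.63 to 1.67), and its value ran from 0.16 without Ctrl replicate 3 to 0.84 without Ezh2 KO replicate 3. Henmt1, the enzyme that methylates the 3′ end of piRNAs, had 1 to 6 counts per library, and 12.4% of its 50-base windows also occur in the overlapping gene Gm9857.

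Mov10, a broadly expressed RNA helicase related to Mov10l1 that acts on retroelement RNA, was the most variable of the 29 tested genes of this list. It stood at 427, 282 and 137 CPM under Ctrl and 347, 47.1 and 139 CPM with Ezh2 KO. The highest library was 9.07 times the lowest, and Ezh2 KO replicate 2 alone lay below the Ctrl range. Its within-group SD on the log2 scale, 1.18, was larger than that of 99.8% of genes of like level. Its log2 fold change of -0.67 ± 0.66 (SE; 95% interval -2.18 to 0.85) was -1.60 without Ezh2 KO replicate 1 (unadjusted p = 0.0228, adjusted p = 0.543 in edgeR), -0.21 without Ezh2 KO replicate 2, -0.24 without Ctrl replicate 1 and -1.01 without Ctrl replicate 3. With the replicate block it was -0.91 in edgeR (unadjusted p = 0.141) and -0.92 in DESeq2 (unadjusted p = 0.0253, adjusted p = 0.589). On the first principal component of all tested genes, which held 55.5% of the variance, Ctrl replicate 1 (-61.4) and Ezh2 KO replicate 1 (-35.5) lay at one end and Ezh2 KO replicate 2 (78.0) at the other. These are also the libraries with the highest levels and the lowest level of Mov10, and the part of that component in the spread was not tested. Mov10 had a log2 fold change of 0.20 once both Ctrl replicate 1 and Ezh2 KO replicate 2 were left out. Mov10 made up 6.35% to 42.9% of the summed level of the 32 genes. Without it the sum was 584 ± 27.4 CPM under Ctrl and 651 ± 96.9 CPM with Ezh2 KO (SD, n = 3 each).

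Of the RNA-binding regulators, Dazl alone was abundant. Dazl, which licenses germ cells for gametogenesis by controlling translation, stood at 49.1, 50.2 and 35.0 CPM under Ctrl and 53.7, 58.8 and 33.1 CPM with Ezh2 KO. As in Tdrd12 the libraries numbered 3 were lowest in both groups, and the log2 fold change was 0.12 (95% interval -0.49 to 0.72). Boll, its paralog of later spermatogenesis, ranged from 0.494 to 1.05 CPM. Nanos2, which promotes the male fate of fetal germ cells, had 2 counts in Ctrl replicate 1, 1 in Ctrl replicate 2 and 0 in the other libraries. Of its 50-base windows 47.4% also occur in Gm45058, and no fold change is given. Mybl1, the transcription factor A-MYB that drives piRNA genes in spermatocytes, was at 1.81, 3.69 and 3.75 CPM under Ctrl and 1.87, 2.47 and 3.63 CPM with Ezh2 KO. Its groups overlapped over nearly the whole range (log2 fold change -0.21, -1.13 to 0.72).

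**Figure D5:**
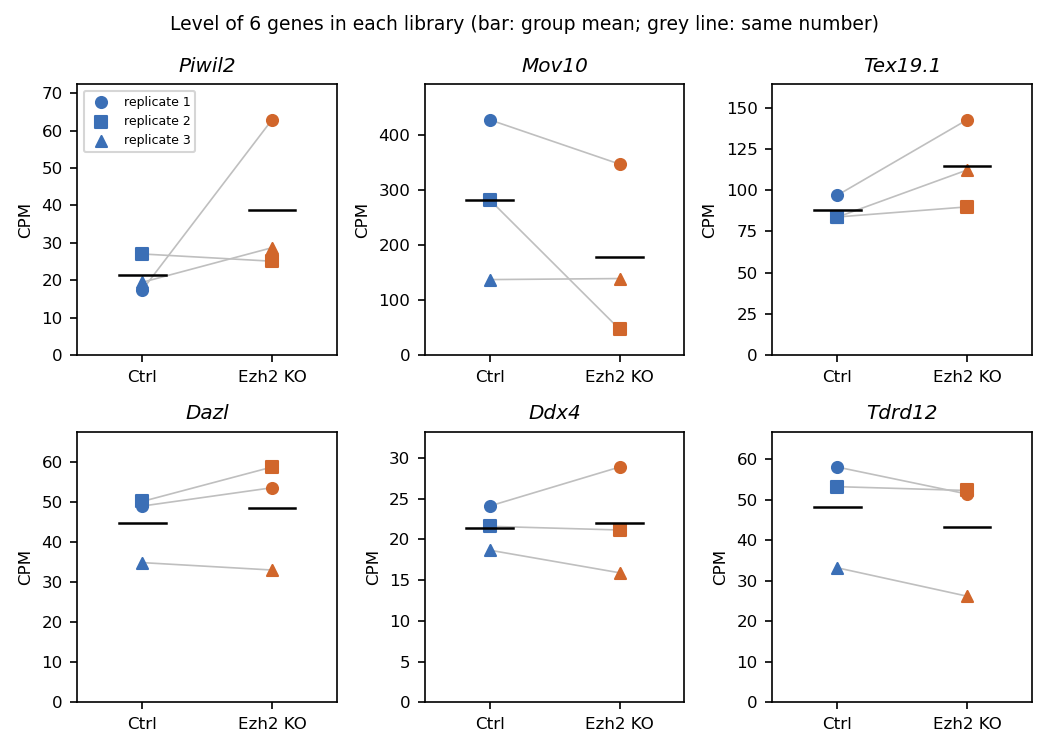
Level in CPM of Piwil2, Mov10, Tex19.1, Dazl, Ddx4 and Tdrd12 in each library; marker shapes give the replicate number, bars the group means, and grey lines join libraries of the same number. Ezh2 KO replicate 1 stands apart for Piwil2 at 62.9 CPM, and the libraries numbered 3 are the lowest of each group for Dazl, Ddx4 and Tdrd12.

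The other germline genes had 4 log2 fold changes above 0 and 1 below, and 0 of the 5 passed. Tex19.1, which protects germ cells and placenta against retrotransposons, was the highest of all per length, at 96.9, 83.8 and 83.7 CPM under Ctrl and 143, 89.9 and 112 CPM with Ezh2 KO. Only Ezh2 KO replicate 2 fell inside the Ctrl range. Its log2 fold change of 0.38 ± 0.19 (SE; 95% interval -0.06 to 0.83) had the second smallest unadjusted p of the 29 genes (0.0833 in edgeR's quasi-likelihood test, adjusted p = 0.976). It was 0.20 without Ezh2 KO replicate 1 (unadjusted p = 0.320 in edgeR), and 0.61 without Ctrl replicate 1 and Ezh2 KO replicate 2 (unadjusted p = 0.00498, adjusted p = 1.00 in edgeR). Rpl10l, a retrogene copy of a ribosomal protein gene used in spermatocytes, stood at 28.7, 22.9 and 21.4 CPM under Ctrl and 24.1, 32.2 and 19.5 CPM with Ezh2 KO. Slc25a31, a testis ADP/ATP carrier, stood at 6.31, 6.60 and 7.54 CPM under Ctrl and 7.38, 9.27 and 5.58 CPM with Ezh2 KO. Both overlapped between groups, with log2 fold changes of 0.05 (-0.51 to 0.62) and 0.12 (-0.50 to 0.74), and 7.60% of the 50-base windows of Rpl10l occur in another gene. The parental gene Rpl10 had a mean level of 291 CPM per kb, and whether its reads add to those of Rpl10l was not tested.

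The germ cell surface protein genes Dpep3 and Tex101 were low. Dpep3 was at 4.93, 2.09 and 1.42 CPM under Ctrl and 3.50, 2.05 and 0.840 CPM with Ezh2 KO, and Tex101 was at 1.75, 1.99 and 0.955 CPM under Ctrl and 2.97, 1.62 and 1.26 CPM with Ezh2 KO. Libraries of one group differed more than the group means in both, with log2 fold changes of -0.41 (95% interval -1.83 to 0.999) and 0.32 (-0.71 to 1.34).

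The libraries numbered 3 were the lowest of each group in a larger share of these genes than of all tested genes. For 11 of the 29 tested genes (Dazl, Ddx4, Tdrd12, Fkbp6, Tdrkh, Pnldc1, Asz1, Exd1, Rpl10l, Tex101 and Dpep3) the library numbered 3 was the lowest in Ctrl and also in Ezh2 KO, which held for 8.56% of all tested genes. For 12 the library numbered 1 was the highest in both groups, which held for 25.9% of all tested genes. Number 1 was the lowest in both groups for 4 of the 29 (13.8%, and 22.9% of all tested genes). Number 2 was so for 1 (3.45%, and 12.1% of all tested genes). The pattern of the libraries numbered 3 was noticed in the data and is a description. Marker lists of other cells differed in whether they set the libraries numbered 3 apart. In summed level these libraries were highest of each group for mesoderm (20.9 and 23.8 CPM for Ctrl and Ezh2 KO) and trophoblast markers. They were lowest of each group for blood and endothelium markers (127 and 123 CPM). For endoderm, neuroectoderm, fibroblast and pluripotent cell markers they were not at the same end of both groups. The summed level of 8 trophoblast markers was 451 and 368 CPM in the libraries numbered 3 of Ctrl and Ezh2 KO, and 136 to 254 CPM in the other libraries. That sum rests on the keratins Krt8, at 210 and 158 CPM in the libraries numbered 3, and Krt18, at 208 and 176 CPM. Elf5 was at 0.371 to 1.42 CPM, and the giant cell marker Prl3d1 was at 0 in 5 libraries. The 8 primordial germ cell markers did not follow the same order as a list, with summed levels of 1145, 1463 and 1279 CPM for Ctrl replicates 1 to 3 and 1287, 1112 and 1073 CPM for Ezh2 KO. Whether the make-up of the sorted cells has a part in the lower levels was not tested.

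Other genes of the pathway gave no call between the groups either. Of 33 further piRNA and genome-defence genes 32 were found and 28 tested, with 14 log2 fold changes above 0 and 14 below, a median of 0.00 and 0 called. Dnmt3c, a rodent methyltransferase that silences young retrotransposons in male germ cells, had an unadjusted p of 0.0236 in edgeR (adjusted p = 0.976), at 1.55, 2.59 and 2.72 CPM under Ctrl and 3.13, 5.29 and 5.14 CPM with Ezh2 KO. Its groups did not overlap, as was also the case for Tdrd3 and Ddx25. These 3 of 28 genes (10.7%) were all higher in Ezh2 KO, and 8.09% of all tested genes did not overlap (4.07% higher). Tex15, which is needed for piRNA-directed DNA methylation, stood at 28.03 ± 10.5 CPM under Ctrl and 47.5 ± 21.2 CPM with Ezh2 KO (SD, n = 3 each). Gpat2, a mitochondrial acyltransferase of the pathway, stood at 14.3 ± 4.88 and 9.42 ± 6.46 CPM, and Ago2, the small RNA slicer, at 60.7 ± 3.35 and 69.7 ± 8.91 CPM. The highest per length of this list were the chaperone Hsp90aa1 (1390 CPM per kb), the Gtsf1 paralog Gtsf1l (154) and the arginine methyltransferase Prmt5 (61.4).

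Germline genes outside the pathway that are held by promoter methylation were all detected too. All 20 were tested, with 13 log2 fold changes above 0 and 7 below, a median of 0.18 and 0 called. The smallest unadjusted p were those of the bromodomain gene Brdt (0.0647 in edgeR; 1.35 ± 0.156 CPM under Ctrl and 2.21 ± 0.527 CPM with Ezh2 KO), Meioc (6.75 ± 3.05 and 4.12 ± 0.716 CPM), Taf7l (1.79 ± 0.959 and 0.968 ± 0.507 CPM) and the meiotic axis gene Hormad1 (23.0 ± 8.26 and 34.8 ± 15.8 CPM). Tuba3a (42.3 CPM per kb), Hsf2bp (33.2) and Sohlh2 (29.1) were highest per length.

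Repressors and regulators of DNA methylation at such promoters, the demethylases Tet1 and Tet2 among them, were expressed in every library. Of 13 tested, 4 log2 fold changes were above 0 and 9 below, with a median of -0.09 and 0 called. Dnmt3b, a de novo DNA methyltransferase, had an unadjusted p of 0.0184 in edgeR (adjusted p = 0.976) at 48.0 ± 3.77 CPM under Ctrl and 74.0 ± 18.2 CPM with Ezh2 KO, and Tet1 stood at 244 ± 67.5 and 335 ± 74.2 CPM. Max, whose product binds the E-box, stood at 145, 139 and 145 CPM under Ctrl and 137, 70.7 and 129 CPM with Ezh2 KO. Each Ezh2 KO value lay below each Ctrl value, and the lowest was that of Ezh2 KO replicate 2. In this list the groups did not overlap for 1 gene higher and 1 lower in Ezh2 KO (15.4% of the 13, and 8.09% of all tested genes). Tet2 stood at 127 ± 31.6 and 98.9 ± 9.60 CPM. The highest per length were Uhrf1 (53.0 CPM per kb), Cbx3 (42.2) and Tfdp1 (38.6).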

How the data were processed

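The authors deposited whole-number read counts per Ensembl gene for 6 libraries, not normalized. Per the submitters' processing notes, the tools were featureCounts, TopHat2 2.0.11, Trimmomatic 0.33 and CASAVA 1.8.4, and the builds NCBIM37 and mm9. Settings, strand use and read length are not stated, so reads of overlapping or antisense genes cannot be told apart. Libraries were made from total RNA of sorted cells with a low-input kit, per the labels' protocols. Symbols and exon lengths came from GENCODE M21 by gene ID (32919 of 37991 IDs matched). Since that is another build, coordinates are printed only for RefSeq promoter windows (GRCm38.p6), of which 30 of 38 run into a transcript of their gene as annotated. Exact 50-base windows shared with transcripts of other genes were counted on both strands.

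Genes kept by filterByExpr (minimum count 10) numbered 16420. They were tested in edgeR 4.0.16 (R 4.3.3) with TMM scaling and the robust quasi-likelihood F-test, in a two-sided test of group alone, with p adjusted by Benjamini-Hochberg over all tested genes and a threshold of 0.05. The SE was derived from the F statistic. Scripts were tested on simulated data. The 32 genes and the lists were chosen with earlier results of these data known. Library values are printed for genes of mean CPM of at least 1, and for the other lists the genes of smallest p and highest level per length are named. Same-numbered libraries were checked for pairing. Deviations from the group means correlate at 0.58, 0.37 and 0.19 for numbers 1 to 3 over all tested genes, above the limit of 0.1 used to treat numbers as pairs, but at 0.62, 0.30 and 0.04 over the 10827 genes of mean log2 CPM over 2, where Ctrl replicate 3 correlates better with Ezh2 KO replicate 2 (0.30 over all tested genes and 0.53 over these) than with its own number. The pairing of number 3 is thus weak. Alternatives were DESeq2 1.42.0, limma-voom (limma 3.58.1), other size factors, filters and thresholds, the replicate block, and libraries left out.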

Additional observations from a re-analysis of the deposited data

How the results depend on the processing

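Of the 32 genes, 0 were called under every alternative run, which were DESeq2 size factors, DESeq2, limma-voom, no filter, the stricter filter, the replicate block in edgeR (0) and in DESeq2 (0), each library left out, both ends of the first principal component left out, and thresholds of 0.1 and 0.01. Over all genes edgeR called 0 with and without the block, DESeq2 called 5 and DESeq2 with the replicate block 50. The block changed no call of the 32 genes; with it the unadjusted p was 0.0868 for Piwil2 and 0.141 for Mov10 in edgeR, and 0.0330 and 0.0253 in DESeq2. The number of the 32 genes with an unadjusted p under 0.05 was 0 to 2 over all settings. The median log2 fold change of the tested genes ranged from -0.09 to 0.19 with one library left out. Of 402 values of single genes under alternatives, 42 had the other sign, and 9 of the 29 genes had none such. With Ctrl replicate 1 and Ezh2 KO replicate 2 left out, log2 fold changes of the other sign were 0.30 for Dpep3, 0.20 for Mov10, 0.11 for Mov10l1, 0.0894 for Pld6, 0.48 for Tdrd9, -0.26 for Rnf17, -0.0204 for Rpl10l, -0.12 for Slc25a31, -0.17 for Stk31 and -0.0847 for Tdrd7. Ddx4 was at -0.0173 in limma-voom and -0.0110 in DESeq2 with the replicate block, and Rpl10l at -0.0042 in limma-voom. With one library left out, the ranges that cross 0 were -0.41 to 0.0597 for Boll, -0.0713 to 0.33 for Dazl, -0.21 to 0.22 for Ddx4, -0.996 to 0.28 for Dpep3, -0.30 to 0.12 for Exd1, -0.0899 to 0.32 for Fkbp6, -0.39 to 0.0593 for Mov10l1, -0.23 to 0.40 for Piwil1, -0.29 to 0.61 for Piwil4, -0.0426 to 0.36 for Rnf17, -0.15 to 0.21 for Rpl10l, -0.0625 to 0.29 for Slc25a31, -0.0834 to 0.19 for Stk31, -0.40 to 0.11 for Tdrd12, -0.62 to 0.0031 for Tdrd5, -0.75 to 0.36 for Tdrd9 and -0.13 to 0.56 for Tex101. The other ranges were 0.16 to 0.84 for Asz1, -0.39 to -0.14 for Gtsf1, -0.48 to -0.21 for Mael, -1.60 to -0.21 for Mov10, -0.50 to -0.0039 for Mybl1, 0.34 to 1.11 for Piwil2, -0.45 to -0.0558 for Pld6, -0.36 to -0.12 for Pnldc1, 0.15 to 0.43 for Tdrd1, 0.0453 to 0.55 for Tdrd7, 0.21 to 0.58 for Tdrkh and 0.20 to 0.54 for Tex19.1. The cause was not tested. Depth limits Piwil1, Piwil4, Tdrd9, Boll, Henmt1, Nanos2 and Tdrd6 most, which are all under 1 CPM on average.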
